A study of Mus musculus with 6 samples.

Results

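The FOXO factors and genes listed as their growth-restraint and signalling targets were followed through 10 genes. These were Foxo1 and Foxo3, the alpha-arrestin genes Txnip, Arrdc3 and Arrdc4, the cell cycle genes Ccng2, Ypel3 and Cdkn1b, and the insulin and PI3K signalling genes Irs2 and Pik3ip1. Members were listed by name, but with earlier results of these data known, so shares and medians beside those of all genes are descriptions. Every probe set the array annotation gives the members was used, 21 of 45101 in all. Of these, 20 carried exactly 1 gene symbol, and 14 of the 20 lay above the filter on dim signals (a mean signal of about 47). The 14 probe sets covered 8 of the 10 genes, among 10916 genes tested, while all probe sets of Foxo1 and Arrdc4 lay below the filter.

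Expression was measured in Ba/F3, a mouse pro-B cell line that depends on interleukin 3. Cells of the NCOR1-LYN group had been transduced with a retroviral Tet-on system. It expresses NCOR1-LYN, a fusion of parts of the corepressor NCOR1 and of the tyrosine kinase LYN, when doxycycline is given. The control group held 3 samples of uninduced cells without doxycycline, and the NCOR1-LYN group held 3 samples of cells with doxycycline. Any effect of doxycycline itself, or of transduction if control cells lack the construct, cannot be told apart from one of NCOR1-LYN. The labels give neither dose nor time, do not say whether the line is 1 clone, and do not spell out whether control cells carry the construct. The cultures are described as triplicates with no further detail, and p-values therefore cover only how these samples vary, which may be technical.

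FOXO proteins are forkhead transcription factors held in check by growth signalling. Active PI3K and AKT phosphorylate them, which keeps them out of the nucleus, and when the signal fades they enter the nucleus and switch on genes that slow the cell cycle, restrain nutrient uptake and dampen the growth signal itself. In blood cells interleukin 3 is one such growth signal. Much of this control acts on the protein, which the arrays do not measure.

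Txnip was lower with NCOR1-LYN in every pair, and was the 1 gene of the 8 that passed the test, once replicate number was added to the fit as a block. Ccng2, Ypel3 and Pik3ip1 also had lower signals in every pair without passing, and Foxo3, Arrdc3, Cdkn1b and Irs2 went both ways. Without a block 0 of the 8 genes passed in limma (adjusted p of 0.05, over all genes), where 0.0824% of all genes passed, and 0 of the 8 had an unadjusted p under 0.05, against 4.75% of all genes. With the block 1 of the 8 passed and fell, where 0.824% of all genes passed and 0.559% were called lower, and 4 had an unadjusted p under 0.05, against 11.3% of all genes. The median log2 fold change of the 8 genes was −0.32, against −0.01 for all genes tested, with medians of −0.55, −0.25 and −0.23 in pairs 1, 2 and 3. A pair is the control and the NCOR1-LYN array of the same replicate number. All log2 values and all percentages of control are of the signal plus 64.

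**Figure D1:**
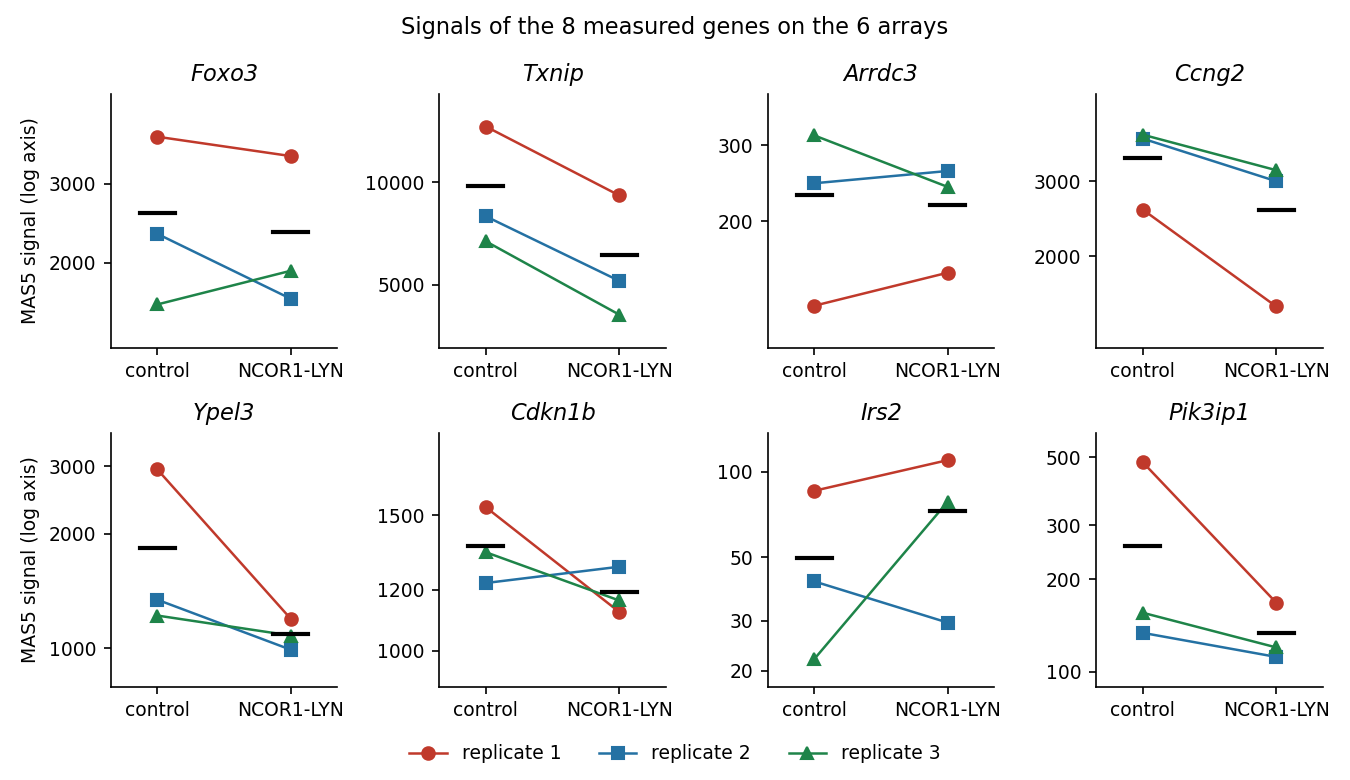
MAS5 signal (log axis) of the brightest probe set of each of the 8 measured genes, in control and NCOR1-LYN arrays, with lines joining arrays of the same replicate number and black bars for group means (n = 3). The 3 lines of Txnip run downward side by side, while Ypel3 and Pik3ip1 drop mainly in replicate 1 and Irs2 goes both ways.

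Promoter windows of the genes that were lower in all 3 pairs are shown first, because they place the letters that FOXO and sugar-sensing factors are known to bind beside the genes with lower signals in each pair, of which Txnip alone passed, with the block. All 10 genes had a window in the RefSeq promoter table (build GRCm38.p6), and the 250 bases before each annotated start were searched on both strands for 7 motifs. These were the FOXO site GTAAACA, its variant GTAAATA, the forkhead core AAACAAC, the insulin response element CAAAACA, the E-box CACGTG, the carbohydrate response element (CACGNG, any 5 bases, then CNCGNG) and its arm CACGAG alone. Matches could overlap. Capitals mark the matches, and each sequence runs 5′ to 3′ on the strand of its gene.

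Txnip, chr3:96557707-96557956, plus strand: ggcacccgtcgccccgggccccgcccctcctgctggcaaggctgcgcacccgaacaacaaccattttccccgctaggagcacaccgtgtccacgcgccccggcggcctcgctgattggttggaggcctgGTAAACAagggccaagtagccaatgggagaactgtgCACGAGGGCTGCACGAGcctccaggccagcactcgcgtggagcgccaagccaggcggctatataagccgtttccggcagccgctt
Ccng2, chr5:93267323-93267572, plus strand: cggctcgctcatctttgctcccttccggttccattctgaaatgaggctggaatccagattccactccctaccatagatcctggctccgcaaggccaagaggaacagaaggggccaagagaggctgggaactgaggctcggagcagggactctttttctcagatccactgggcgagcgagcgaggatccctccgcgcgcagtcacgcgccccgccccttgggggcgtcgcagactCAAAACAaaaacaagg
Ypel3, chr7:126776713-126776962, plus strand: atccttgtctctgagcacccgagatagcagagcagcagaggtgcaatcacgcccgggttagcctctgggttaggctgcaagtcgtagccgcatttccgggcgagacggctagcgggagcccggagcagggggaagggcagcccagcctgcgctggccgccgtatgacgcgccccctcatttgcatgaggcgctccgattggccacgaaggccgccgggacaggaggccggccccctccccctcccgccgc
Pik3ip1, chr11:3330481-3330730, plus strand: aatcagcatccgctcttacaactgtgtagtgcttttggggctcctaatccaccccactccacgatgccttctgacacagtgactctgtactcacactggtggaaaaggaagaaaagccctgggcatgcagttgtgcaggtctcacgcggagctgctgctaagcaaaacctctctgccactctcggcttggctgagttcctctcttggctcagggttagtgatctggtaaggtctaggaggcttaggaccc

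Txnip held the FOXO site, 121 to 115 bases before its start, and a carbohydrate response element, 85 to 69 bases before it. The FOXO site was present in 3.17% of all 32851 promoter windows and the carbohydrate response element in 0.28%. Both arms of that element in Txnip read CACGAG, which alone was present in 5.37% of windows. Ccng2 held an insulin response element 16 to 10 bases before its start, a motif present in 5.56% of windows. Ypel3 and Pik3ip1 held none of the 7 motifs in this window. Of the other genes, Irs2 held an insulin response element, an overlapping forkhead core and an E-box, Arrdc4 held an E-box, and Arrdc3 held 1 forkhead core, which lies in 2 of its overlapping windows. The E-box was present in 6.02% of windows and the forkhead core in 3.55%. The variant GTAAATA, present in 2.73% of windows, was in none of the 12 windows of these genes. The motifs were chosen with the members' results known, so the shares of windows do not measure how unexpected a match is. Matches describe the letters in these windows and are not measured binding sites.

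Of the factors themselves, Foxo3 was measured and Foxo1 was not. Foxo3, known for restraining the growth of blood progenitors, had signals of 3829, 2319 and 1611 in controls 1, 2 and 3 and of 3465, 1659 and 1917 with NCOR1-LYN. Replicate 1 was the highest in both groups and the groups overlapped. The log2 fold change of Foxo3 was −0.12 ± 0.36 (SE, limma, adjusted p = 0.999, 0.789 with the block), and the pairs went −0.14, −0.47 and 0.24. A second probe set of Foxo3 had control signals of 1482, 850 and 748 and NCOR1-LYN signals of 1163, 716 and 796, a log2 fold change of −0.16 ± 0.28. A dimmer one ran from 74.4 to 102 in controls and from 76.9 to 112 with NCOR1-LYN, a log2 fold change of 0.01 ± 0.16. One more probe set was annotated to both Foxo3 and Gm38485, so its signals of 186 to 238 in controls and 161 to 187 with NCOR1-LYN cannot be assigned to either. No probe set of Foxo3 had the same direction in all 3 pairs apart from that shared one, which was lower in each.

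Foxo1, the family member known for its part in early B cell development, had 4 probe sets with mean signals of 18.9 to 43.3, all below the filter. The brightest ran from 45.1 to 50.1 in controls and from 20.2 to 48.6 with NCOR1-LYN, and the groups overlapped. A probe set of Foxo1 with a mean signal of 42.7 had 38.9, 5.1 and 41.5 in controls against 55.4, 42.6 and 72.3 with NCOR1-LYN. These groups did not overlap, which held in that direction for 565 of the 10916 genes tested, all above the filter. No other Foxo1 probe set shared this pattern. For this probe set 5 of the 6 signals lay below 64, as did 50.6 to 52.7% of the probe sets of each array. Foxo1 thus did not enter the filtered test.

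Txnip encodes an alpha-arrestin that binds thioredoxin and lowers glucose uptake by promoting removal of glucose transporters from the cell surface. Its brightest probe set had signals of 14574, 7944 and 6710 in controls and of 9150, 5136 and 4088 with NCOR1-LYN. Replicate 1 was the highest in both groups and the groups overlapped, since NCOR1-LYN 1 lay above controls 2 and 3. Within the pairs, Txnip with NCOR1-LYN stood at 63.0, 64.9 and 61.3% of its control, nearly the same size in each. The match of replicates 2 and 3 is not established, since their deviations correlated at 0.41 and 0.44 as numbered and 0.39 and 0.48 when crossed. The even size and the small SE with the block depend on this match, and other matches were not tested. The log2 fold change of Txnip was −0.67 ± 0.37 (SE) in limma without a block (adjusted p = 0.999), and −0.67 ± 0.09 with the block (adjusted p = 0.0281). Its blocked p ranked 46 among the 10916 genes.

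The second Txnip probe set gave the same picture on the same RNA. Its signals were 9558, 4135 and 4183 in controls and 5302, 2529 and 2487 with NCOR1-LYN, or 55.8, 61.8 and 60.1% of control in pairs 1, 2 and 3. Its log2 fold change was −0.76 ± 0.40 without a block and −0.76 ± 0.09 with it, with an adjusted p of 0.0223 in the blocked limma fit over 20240 probe sets. With the block, 2 of the 14 probe sets of these genes passed, both of Txnip, where 0.751% of all probe sets passed and 0.484% were called lower. Without a block 0 of the 14 passed in limma, where 0.0346% of all probe sets passed, and 1 had an unadjusted p under 0.05, against 935 of 20240 probe sets. With the block that count was 7 of the 14, against 2343 of 20240. The call of Txnip was lost in the blocked fit without pair 2 (−0.69, adjusted p = 0.338), without pair 3 (−0.65, adjusted p = 0.264), without the filter on dim genes (adjusted p = 0.0732) and without the intensity trend (adjusted p = 0.0895). Its size stayed between −0.69 and −0.65 in the 10 blocked fits. Without a block Txnip passed in limma with array weights (−0.69, adjusted p = 0.0465), in a fit that called 502 genes. It also passed with both replicate 1 arrays left out (−0.66, adjusted p = 0.00536), in a fit that called 754 genes.

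Arrdc3, an alpha-arrestin that promotes the internalisation of membrane receptors, did not follow Txnip. Its signals were 128, 245 and 316 in controls and 152, 262 and 240 with NCOR1-LYN. Replicate 1 was the lowest in both groups, the opposite of Txnip, and the groups overlapped. The log2 fold change of Arrdc3 was −0.02 ± 0.29 (adjusted p = 0.999 in limma, 0.963 with the block), with 0.17, 0.08 and −0.32 in the pairs. Arrdc4, the closest relative of Txnip in sugar sensing, had probe sets with mean signals of 13.8 and 5.5, both below the filter. Its brighter one ran from 1.5 to 25.1 in controls and from 9.4 to 24.9 with NCOR1-LYN, so that no direction could be read.

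**Figure D2:**
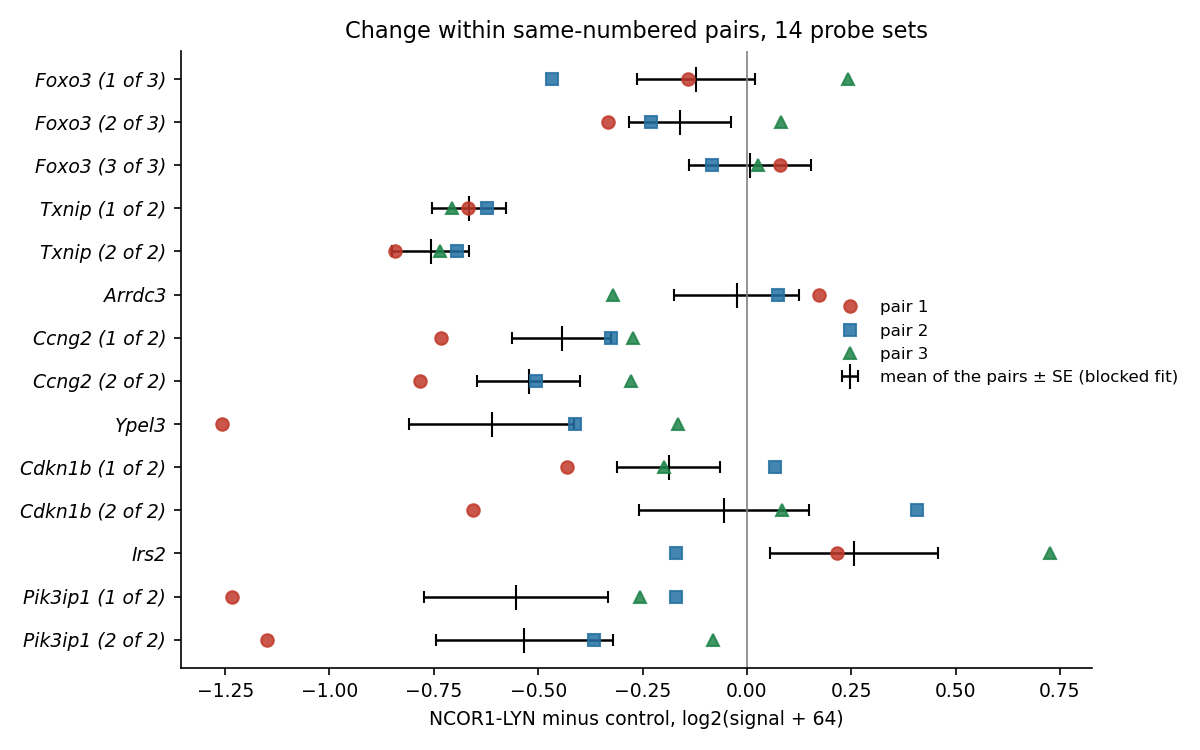
Log2 change from control to NCOR1-LYN within each same-numbered pair for the 14 probe sets above the filter (coloured symbols), with the mean of the 3 pairs and its SE in the blocked fit (black). Both Txnip probe sets have their 3 pairs close together between −0.84 and −0.62, whereas pair 1 stands far below the others for Ypel3 and Pik3ip1.

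Among the cell cycle genes, Ccng2 and Ypel3 had lower signals in every pair. Ccng2, an unconventional cyclin known as a FOXO target that promotes cell cycle arrest, had signals of 2576, 3784 and 3865 in controls and of 1524, 3005 and 3189 with NCOR1-LYN. Replicate 1 was the lowest in both groups and the groups overlapped. Ccng2 stood at 60.2, 79.7 and 82.8% of control in the pairs, a log2 fold change of −0.44 ± 0.30 (adjusted p = 0.999 in limma) or ± 0.12 with the block (adjusted p = 0.198). Its second probe set had 1465, 1737 and 1723 in controls and 825, 1204 and 1409 with NCOR1-LYN, and these groups did not overlap. Its log2 fold change was −0.52 ± 0.20 (SE, limma, unadjusted p = 0.0348, adjusted p = 0.999), with an adjusted p of 0.150 with the block. Of the 14 probe sets, 2 were lower with NCOR1-LYN without overlap of the groups, against 5.30% of all probe sets tested. With both replicate 1 arrays left out, Ccng2 passed in limma at −0.30 (adjusted p = 0.0205), in a fit that called 754 genes. Without NCOR1-LYN 1 alone it was −0.11 (adjusted p = 0.890).

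Ypel3, a small zinc-binding protein gene whose product is known to push cells towards growth arrest, had signals of 2947, 1342 and 1220 in controls and of 1196, 992 and 1081 with NCOR1-LYN. All controls lay above all NCOR1-LYN arrays, though control 3 exceeded NCOR1-LYN 1 only slightly. Among the 8 genes this was the 1 whose groups did not overlap, with 6.06% of all genes lower in that way. Ypel3 stood at 41.8, 75.1 and 89.2% of control in the pairs, and its log2 fold change was −0.61 ± 0.31 (adjusted p = 0.999 in limma, 0.315 with the block). Without control 1 the log2 fold change of Ypel3 was −0.22, and without both replicate 1 arrays it was −0.29 (adjusted p = 0.0824). In a blocked limma fit of replicates 2 and 3 Ypel3 passed at that size (adjusted p = 0.0311). That fit had 1 residual degree of freedom and called 1127 genes, Txnip (adjusted p = 7.51e-13) and Ccng2 (adjusted p = 0.00586) among them.

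Cdkn1b, which encodes the CDK inhibitor p27Kip1, moved little. Its brighter probe set had 1536, 1225 and 1343 in controls and 1123, 1286 and 1163 with NCOR1-LYN, and the groups overlapped through NCOR1-LYN 2. The log2 fold change of Cdkn1b was −0.19 ± 0.13 (adjusted p = 0.999 in limma, 0.622 with the block), with pair changes of −0.43, 0.07 and −0.20. A dimmer second probe set had 715, 221 and 160 against 430, 314 and 173, with pair changes of −0.66, 0.41 and 0.09. That probe set was highest in replicate 1 of both groups, a pattern the brighter one had in controls but not with NCOR1-LYN. FOXO factors are known to raise Cdkn1b RNA, while its protein is also set by degradation, which was not measured.

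Pik3ip1, a membrane protein that inhibits PI3K, had signals of 481, 134 and 156 in controls and of 168, 112 and 120 with NCOR1-LYN. Control 1 stood far above the other 5 arrays, and the groups overlapped. Pik3ip1 stood at 42.5, 88.8 and 83.8% of control in the pairs, and its log2 fold change was −0.55 ± 0.38 (adjusted p = 0.999 in limma, 0.423 with the block). Its second probe set had 404, 146 and 129 against 147, 98.7 and 118, again lower in each pair and again mainly in pair 1. Without control 1 the log2 fold change of Pik3ip1 was −0.09, and without both replicate 1 arrays −0.21 (adjusted p = 0.543).

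Irs2, the adaptor that couples insulin and cytokine receptors to PI3K and a known FOXO target, was dim. Its signals were 85.6, 41.2 and 22.0 in controls and 110, 29.5 and 78.4 with NCOR1-LYN, and the groups overlapped. It was the 1 gene of the 8 with a positive log2 fold change, 0.26 ± 0.29 (adjusted p = 0.999 in limma, 0.697 with the block), and its pairs went 0.21, −0.17 and 0.73. The 1 probe set of Irs2 lay near the filter, and leaving out 1 array moved its log2 fold change from 0.06 (without NCOR1-LYN 1) to 0.51 (without NCOR1-LYN 2).

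Counted over the 8 genes, 4 were lower in all 3 pairs, 0 were higher in all 3 and 4 were mixed, while 18.9% of all genes tested were lower and 15.9% higher in all 3 pairs. Over the 14 probe sets, 7 were lower in all 3 pairs (both of Txnip, both of Ccng2, both of Pik3ip1 and that of Ypel3), against 17% of all probe sets tested. Probe sets of 1 gene read the same RNA and are not separate evidence. Among these 4 genes the difference was largest in pair 1 for Ccng2, Ypel3 and Pik3ip1 and nearly even over the pairs for Txnip.

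For several of these genes replicate 1 differed from replicates 2 and 3 by more than the 2 groups differed from each other. On the log2 scale Txnip was higher in replicate 1 than in the mean of replicates 2 and 3 by 0.99 in controls and by 0.99 with NCOR1-LYN. Foxo3 was higher by 0.96 and 0.93 and Irs2 by 0.65 and 0.59. Ypel3 (1.16 and 0.20) and Pik3ip1 (1.39 and 0.37) were higher in replicate 1 by much more in controls than with NCOR1-LYN. Arrdc3 had differences of −0.84 and −0.54 and Ccng2 of −0.56 and −0.99, so these FOXO targets went the other way. Cdkn1b had 0.25 and −0.12. In all, 5 of the 8 genes were higher and 2 lower in replicate 1 of both groups, where 39.2% and 31.9% of all genes were. The labels give no day or batch for a replicate number, and its part in the differences between pairs was not tested.

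**Figure D3:**
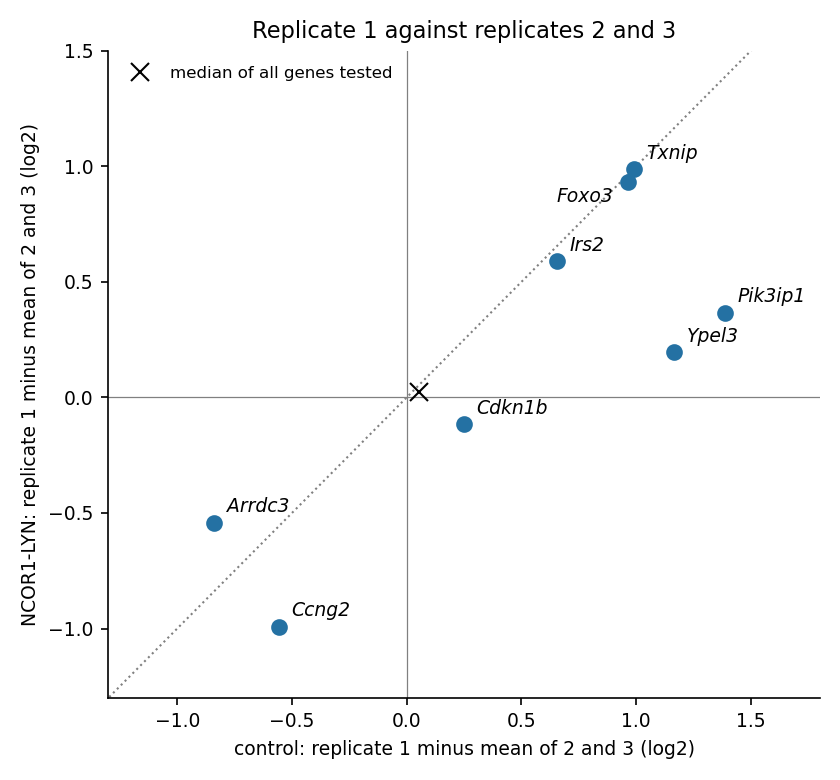
Log2 difference of replicate 1 from the mean of replicates 2 and 3 in controls (horizontal) and in NCOR1-LYN arrays (vertical) for the 8 measured genes, with the median of all genes tested as a cross and equality as a dotted line. Txnip, Foxo3 and Irs2 lie near the line well above 0, Ypel3 and Pik3ip1 lie below it, and Arrdc3 and Ccng2 lie on the negative side.

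Other genes of the pathway were followed in 7 lists, of which 87 genes were measured. In limma 0 of the 87 passed with or without the block, with 14 (16.1%) and 2 (2.30%) at an unadjusted p under 0.05, against 11.3% and 4.75% of all genes, and their median log2 fold change was −0.01. The groups did not overlap, with NCOR1-LYN below, for 5 of the 87, where 6.06% of all genes were lower in that way. Of the other known FOXO targets, 13 of 22 were measured, with 8 below and 5 above 0 and a median of −0.06. Sesn1, a sestrin that restrains mTORC1, had signals of 2281, 2193 and 2155 in controls and of 1074, 1692 and 1810 with NCOR1-LYN, and these groups did not overlap. Its log2 fold change was −0.55 ± 0.20 (adjusted p = 0.903 in limma, 0.256 with the block). Gadd45a, a growth arrest and DNA damage gene, went the other way, with 3591, 2008 and 1879 against 4822, 3152 and 2782 and higher signals in each pair. Its log2 fold change was 0.53 ± 0.29 (adjusted p = 0.999 in limma, 0.0676 with the block). Foxo4, the 1 measured member of 2 in the list of other FOXO family genes, had a log2 fold change of 0.05 ± 0.22.

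The list of PI3K, AKT and FOXO kinases, which also holds phosphatases, adaptors, regulatory subunits and mTOR genes, showed no shared direction. Of its 23 measured genes 14 lay below and 9 above 0, with a median of −0.03. Phlpp1, a phosphatase that removes an activating phosphate from AKT, had 6420, 5623 and 5566 in controls and 3128, 4062 and 4572 with NCOR1-LYN. These groups did not overlap, which held in that direction for 5 of the 87 pathway genes and for 6.06% of all genes. The fitted log2 change of Phlpp1 was −0.59 ± 0.16 (unadjusted p = 0.00743, adjusted p = 0.605 in limma, 0.178 with the block). Pik3ap1, an adaptor that recruits PI3K in B cells, had 3221, 2256 and 2003 against 2716, 1308 and 1393, a log2 fold change of −0.50 ± 0.30 (adjusted p = 0.16 with the block). FOXO cofactors and modifiers had a median of 0.05 over 14 genes, with Ep300, an acetyltransferase, at 0.26 ± 0.12 and Xpo1, the nuclear exporter, at 0.20 ± 0.29 as the largest.

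Relatives of the alpha-arrestins and genes of the sugar-sensing MondoA circuit had a median of −0.01 over 14 genes, 7 on each side of 0. Slc2a3, a glucose transporter gene, had the largest difference, −0.35 ± 0.16, and Nedd4l, a ubiquitin ligase gene, had 0.23 ± 0.31. Mlxip, which encodes MondoA, the factor best known for driving Txnip, had 0.20 ± 0.19, and Txn1, which encodes the thioredoxin that the Txnip protein binds, had 0.02 ± 0.25. Both were named after their values were seen. The relatives of Ypel3 and Ccng2 had a median of −0.09 over 5 genes, with Ccng1 at −0.25 ± 0.35 and Ccni at −0.17 ± 0.11. Genes of the CDK2 and CDK4/6 axis had a median of 0.01 over 17 genes, with Cdkn1a, a CDK inhibitor gene, at −0.30 ± 0.40 and Cdk6, a kinase that drives entry into the cell cycle, at 0.30 ± 0.14. None of these differences passed in limma, and they are limited by 3 arrays per group.

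**Figure D4:**
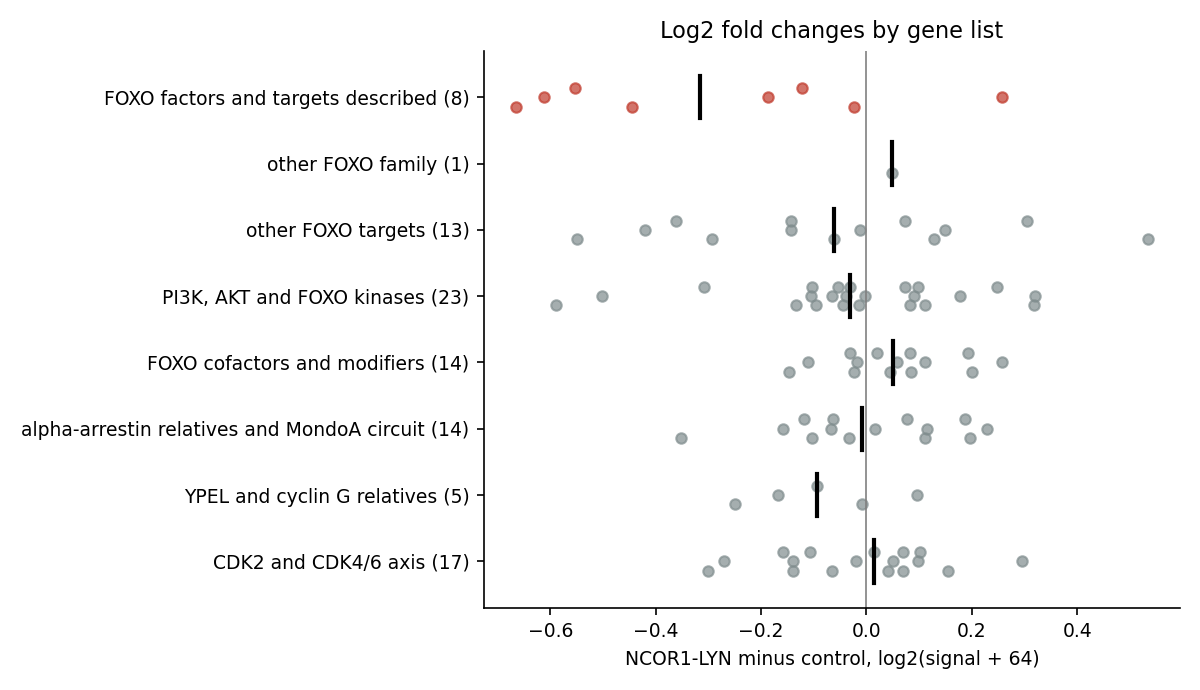
Log2 fold change from control to NCOR1-LYN (horizontal) for each measured gene of the 8 genes described (red) and of the 7 other lists (grey), with black bars for list medians and the number of measured genes in brackets. The median of the 8 genes is −0.32, and the medians of the other lists run from −0.09 to 0.05.

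The genes whose log2 values over the 6 arrays lay closest to those of Txnip, each centred on its own mean, were Irgm1, Samd9l, Lpin1 and Cpne2. Their root mean square distances from Txnip were 0.10, 0.10, 0.12 and 0.12, against a median of 0.60 over all genes tested. Irgm1, an immunity-related GTPase gene, had signals of 1150, 636 and 552 in controls and of 712, 400 and 359 with NCOR1-LYN. Samd9l had 1457, 718 and 685 against 906, 472 and 446, and Lpin1, a phosphatidate phosphatase gene, had 1043, 566 and 546 against 729, 426 and 318. Cpne2, a copine gene, had 4828, 2356 and 2264 against 2886, 1511 and 1539 and was called lower in the blocked limma fit (log2 fold change −0.63 ± 0.09, adjusted p = 0.0407). Since these genes were chosen for their likeness to Txnip over the same arrays, their shared pattern follows from the choice.

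Across the whole series, median signals ran from 54.8 to 61.9 after scaling. Replicate 1 of both groups stood apart on a first principal component that held 58.0% of the variance. B lineage markers were weak for a line labelled pro-B. Of 11 such genes on the array 4 lay above the filter (Cd79b, Pax5, Igll1 and Cd22), and Cd79a, Ebf1, Vpreb1, Rag1 and Rag2 lay below it. The summed signal of 9 myeloid and neutrophil markers was 2621 to 2713 in controls and 7595 to 10503 with NCOR1-LYN, with 6 above the filter. Most of it came from Ngp (153 to 1216 against 4118 to 4686) and Prtn3 (891 to 1763 against 1746 to 4782). Csf1r and Csf3r, the latter below the filter, had lower means with NCOR1-LYN (139 against 147 and 18.5 against 27.3). Mast cell and basophil markers summed to 8312 to 15816 against 8129 to 9468. Gata2 held most of that sum in controls, with 7669 to 14085 against 4339 to 6373 with NCOR1-LYN (adjusted p = 0.0667 in the blocked limma fit). Erythroid and megakaryocyte markers summed to 5778 to 11611 against 4401 to 8719, T cell markers to 112 to 149 against 92.5 to 119 and fibroblast markers to 100.2 to 193 against 63.8 to 128. Among all these markers, Ltf rose without and with the block (1 of 6 myeloid genes) and Cma1 fell with the block (1 of 3 mast cell genes). Fcer1a, another mast cell gene, went against Cma1 and Gata2, from 341 to 975 in controls to 1596 to 4386 with NCOR1-LYN (adjusted p = 0.0963 with the block in limma). The part of these shifts in the difference of Txnip was not tested. In bulk RNA, fewer cells of a type and less RNA per cell cannot be told apart.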

How the data were processed

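RNA of 6 samples was hybridised to 6 Affymetrix mouse arrays. The deposited values are linear MAS5 signal intensities made by the authors, per the submitters' processing notes (version not given in the sources used here), and each array has a mean of 500 after trimming 2% at each end. Signals were used as log2(signal + 64). Of 45101 probe sets, 64 were controls, 34945 had 1 symbol, 932 had several and 9160 had none in the platform annotation, and 34741 symbols were matched by Entrez identifier to GRCm38.p6 names with 0 changed. A gene was represented by its brightest probe set, and genes below the 40th percentile were left out.

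The tests used limma 3.58.1 under R 4.3.3 (intensity trend, Benjamini-Hochberg, adjusted p of 0.05, two-sided), without and with the replicate number as a block (4 and 2 residual degrees of freedom), on genes and again on the single-symbol probe sets above the filter. Deviations from the group means correlated within same-numbered arrays at 0.62, 0.41 and 0.44, all above the limit of 0.1, which took them as pairs. The labels state no shared day, and the check did not tell replicates 2 and 3 apart (0.39 and 0.48 when crossed).

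On simulated data (5 runs, 200 of 10916 genes changed), NCOR1-LYN against control without a block recovered 0, 29.6 and 83.3% of 1.5-, 2- and 4-fold changes, and the blocked fit 5.67, 51.6 and 86.7%, with 0.4 and 1.8 false calls per run. The simulated arrays kept the replicate differences and the residual spreads of the blocked fit, with the spreads shuffled over genes. Pairing therefore held by construction, so these values cannot show which fit suits the real arrays. Named genes were all members, from each pathway list those past the threshold or else the 2 with the largest change, and the 4 closest in profile to the member with the smallest blocked p. The members and lists were chosen with earlier results of these data known. Alternatives covered the block, offset, filter, scaling, probe set choice, array weights, trend and samples left out. The 7 promoter motifs given are all those searched, and they were chosen with the members' results known. Detection calls were not used here.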

Additional observations from a re-analysis of the deposited data

How the results depend on the processing

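The number of genes past the threshold, 9 in limma, was 90 with the replicate block, 502 with array weights, 754 with both replicate 1 arrays left out, 1 without the filter on dim genes and 1 with it at the 60th percentile. Leaving out 1 array gave 0 to 15 (0 without control 2, control 3, NCOR1-LYN 2 or NCOR1-LYN 3, with 346 to 415 genes at an unadjusted p under 0.05). With the replicate block it was 0 to 1127 with 1 pair left out (1127 without replicate 1, in a fit with 1 residual degree of freedom, 0 without replicate 2 with 693 at an unadjusted p under 0.05, 28 without replicate 3), 90 and 92 with offsets of 16 and of 4 times 64, 69 with quantile normalization, 16 without the filter, 69 with the filter at the 60th percentile and 28 without the trend. These blocked combinations were chosen after seeing the data. Of probe sets, 7 passed without and 152 with the replicate block.

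Of the 8 measured genes 0 passed. The count was 1 with the replicate block, 1 with array weights, 2 with both replicate 1 arrays left out, and with the replicate block 0 to 3 with 1 pair left out. It was 1 with the block and an offset of 16, an offset of 4 times 64, quantile normalization or the 60th percentile filter, and 0 with the block without the filter or the trend. With all arrays in, the paired analysis changed the call of Txnip alone among these genes. Without replicate 1 it changed that of Ypel3 alone, since Txnip and Ccng2 passed there without and with the block. Each replicate 1 array had a low weight (0.161 and 0.209). The median log2 fold change of the measured genes ran from −0.44 to −0.16 over all alternatives, with 5 to 10 genes measured, and from −0.38 to −0.16 with 1 array left out.

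Txnip, Ccng2, Ypel3, Pik3ip1, Cdkn1b and Irs2 kept their direction under all alternatives in which they were measured, Txnip between −0.99 and −0.34 with 1 array left out and no block. The offset moved Irs2 to 0.43 with 16 and to 0.10 with 4 times 64. Arrdc3 changed sign without control 2 (0.04), control 3 (0.19) or NCOR1-LYN 1 (0.16) and with the block without replicate 3 (0.12), within −0.30 to 0.19 with 1 array left out. Foxo3 changed sign without control 1 (0.20) or NCOR1-LYN 2 (0.08) and with the block without replicate 2 (0.050), within −0.43 to 0.20 with 1 array left out. The cause was not tested. Without the filter, Foxo1 had −0.14 ± 0.16 and Arrdc4 0.10 ± 0.14, both at signals too near background for a direction.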
